A study of Homo sapiens with 5 samples.

Results

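The AP-1 and EGR immediate early factors are transcription factors whose genes are switched on within minutes of growth factor, stress or adhesion signals. The group examined here was a list of 10 genes, namely FOS, FOSB, FOSL1, FOSL2, JUN, JUNB, JUND, EGR1, EGR2 and ATF3, each read from the brightest array row annotated to that symbol alone. A row was found for 9 of the 10, out of 18417 genes with such a row in all, and EGR2 was not analysed here. They were measured in D54, an established human glioma cell line, on 5 Affymetrix whole-transcript arrays holding 33297 rows. In 3 arrays the cells carried an shRNA against TIP-1, a protein with a single PDZ domain encoded by TAX1BP3, with a different shRNA in each culture. In the other 2 the cells carried a control shRNA, each array coming from 1 independent clone. All 5 cultures were trypsinised, reseeded in DMEM/F12 and left overnight before RNA was taken, so the levels are those of cells after reseeding and not after a timed stimulus. Each TIP-1 array is 1 culture with 1 shRNA and each control array is 1 clone, so differences between shRNAs and between clones cannot be told apart from differences between cultures.

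AP-1 is a dimer of basic leucine zipper proteins. FOS family proteins cannot pair with each other and bind DNA with a JUN partner, whereas JUN proteins can also pair among themselves. ATF3 can pair with JUN proteins. EGR1 is a zinc finger protein that binds GC-rich sites, and both FOS and EGR1 are textbook targets of serum response factor and of the ERK pathway. In glioma cells AP-1 is known for its part in proliferation, invasion and mesenchymal gene expression.

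The silenced gene was lower in every TIP-1 array, as a check of the labels. TAX1BP3 read 9.81, 9.61 and 9.55 log2 units with TIP-1 shRNAs 1, 2 and 3, against 12.05 and 12.10 in controls 1 and 2 (log2 difference -2.42, SE 0.10, limma adjusted p = 0.011). Array medians lay between 7.88 and 7.98, and any 2 arrays correlated across rows at 0.991 to 0.997. Among markers named for glial and glioma cells, VIM read between 13.84 and 14.02 and CD44 between 13.73 and 13.80 in the 5 arrays. SOX9 read between 10.39 and 10.74, while GFAP, at 7.86 to 8.14, and NES, at 7.78 to 8.06, lay near the array medians. The other 7 of the 12 markers, SOX2, OLIG2, S100B, FABP7, SLC1A3, AQP4 and PTPRZ1, lay below the array median in every array. The table has no detection call by which a dim marker could be called absent.

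The promoters of the factors are shown first, because the factors were read for whether they move together, and those shown lay on opposite sides of their means in all 5 arrays (EGR1 and FOSL2 against JUN), have opposite extremes (FOS against JUN) or have the widest group difference (JUNB). The sequences are the 250 bases before the RefSeq transcription start, in GRCh38.p14 and 5′ to 3′ on the strand of the gene. Capitals mark matches, on either strand, to the CArG box bound by serum response factor, the AP-1 site TGANTCA, the CRE or Jun-type site TGACNTCA, the CRE core TGACG, which a CRE also contains, the EGR site GCGNGGGCG and the TATA box TATAAA. EGR1 lies at chr5:138465229-138465478 (plus strand), FOS at chr14:75278578-75278827 (plus strand), FOSL2 at chr2:28392608-28392857 (plus strand), JUN at chr1:58784048-58784297 (minus strand) and JUNB at chr19:12791236-12791485 (plus strand).
EGR1: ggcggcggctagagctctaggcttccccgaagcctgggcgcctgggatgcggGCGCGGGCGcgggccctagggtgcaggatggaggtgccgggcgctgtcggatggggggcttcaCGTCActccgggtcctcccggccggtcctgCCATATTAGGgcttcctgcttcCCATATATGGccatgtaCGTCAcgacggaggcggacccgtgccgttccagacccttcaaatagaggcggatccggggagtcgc
FOS: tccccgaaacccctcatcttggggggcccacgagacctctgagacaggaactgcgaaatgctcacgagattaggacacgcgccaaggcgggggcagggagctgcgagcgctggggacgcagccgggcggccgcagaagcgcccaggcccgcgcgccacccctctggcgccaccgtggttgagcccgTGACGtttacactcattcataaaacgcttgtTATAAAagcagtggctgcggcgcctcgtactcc
FOSL2: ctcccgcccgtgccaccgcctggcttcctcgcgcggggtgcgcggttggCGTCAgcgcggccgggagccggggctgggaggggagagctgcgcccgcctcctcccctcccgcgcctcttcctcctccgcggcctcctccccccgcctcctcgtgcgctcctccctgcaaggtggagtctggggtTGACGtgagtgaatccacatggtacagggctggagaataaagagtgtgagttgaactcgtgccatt
JUN: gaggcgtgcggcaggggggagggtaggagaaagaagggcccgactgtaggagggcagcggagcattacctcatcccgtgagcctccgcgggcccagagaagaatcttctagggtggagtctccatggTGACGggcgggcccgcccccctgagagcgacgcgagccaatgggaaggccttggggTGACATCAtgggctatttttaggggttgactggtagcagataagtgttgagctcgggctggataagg
JUNB: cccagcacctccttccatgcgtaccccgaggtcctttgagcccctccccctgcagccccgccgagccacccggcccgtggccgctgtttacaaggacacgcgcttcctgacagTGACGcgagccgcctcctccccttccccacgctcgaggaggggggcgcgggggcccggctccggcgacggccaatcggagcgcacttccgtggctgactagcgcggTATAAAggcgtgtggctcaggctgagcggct

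The EGR1 promoter held a pair of CArG boxes, CCATATTAGG starting 105 bases before the start site and CCATATATGG starting 83 bases before it. A CArG box occurred in 1.16% of the 35116 promoter windows of the same length, and in 2 of the 12 windows of the listed genes, of EGR1 and EGR2. EGR1 also held an EGR site, GCGCGGGCG, a motif found in 8.41% of windows. The JUN promoter held the Jun-type site TGACATCA 67 bases before its start, and an ATF3 window held the same letters 123 bases before the start. JUND held the CRE TGACGTCA 200 bases before its start. Both are forms of TGACNTCA, which with any base at N occurred in 6.87% of windows and in these 3 of the 12. FOS, FOSB and JUNB each held a CRE core and a TATA box, where the core occurred in 21.2% and the TATA box in 10.7% of all windows. Of the 12 windows of the listed genes, 8 held the core and 4 the TATA box. None of the 12 windows entered for the listed genes held TGANTCA, which occurred in 6.57% of all windows. A match describes letters in the window only and was not tested as a binding site. Bases further upstream were not searched.

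**Figure D1:**
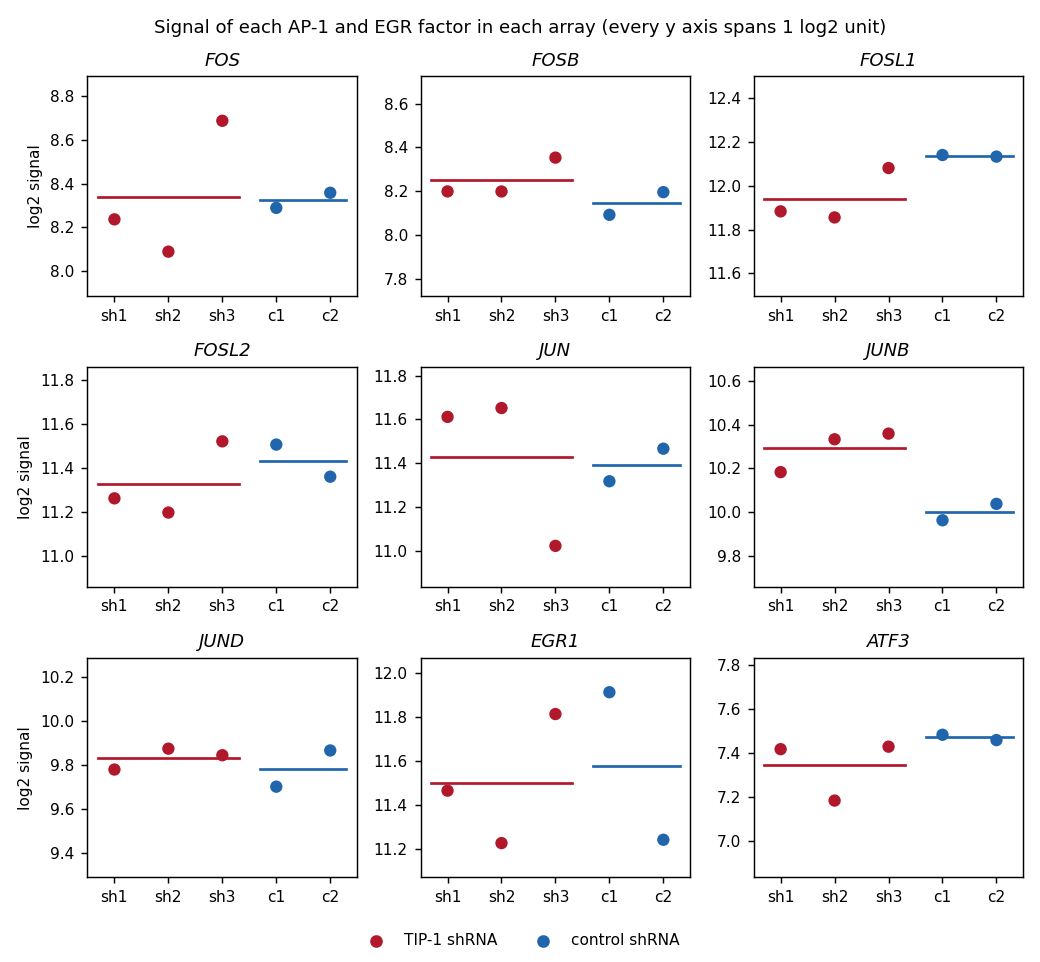
Log2 signal of each of the 9 measured factors in the 3 TIP-1 shRNA arrays (red, sh1 to sh3) and the 2 control shRNA arrays (blue, c1 and c2), with the mean of each group as a line and a y axis of 1 log2 unit in every panel. JUNB lies higher in all 3 TIP-1 arrays, FOSL1 lies lower in all 3, and EGR1 spans 11.24 to 11.91 between the 2 controls alone.

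Among the FOS family, FOSL1 (FRA-1), the member tied to invasive and mesenchymal cells, was lower in all TIP-1 arrays but did not pass the test. It read 11.88, 11.86 and 12.08 with shRNAs 1, 2 and 3, against 12.14 and 12.13 in the controls. The controls were nearly equal and shRNA 3 lay just under them, so the difference came mostly from shRNAs 1 and 2. FOSL1 averaged 11.94 ± 0.12 (SD, n = 3) with TIP-1 shRNA and 12.14 ± 0.01 (SD, n = 2) in controls, and the log2 difference was -0.20 (SE 0.10, 95% interval -0.44 to 0.05, limma adjusted p = 0.713), or 1.15-fold lower. These are levels in whole cultures, where fewer cells with a transcript and less transcript per cell cannot be told apart.

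FOSL2 (FRA-2), the other FOS relative without a strong activation domain, read 11.26, 11.20 and 11.52 with shRNAs 1, 2 and 3, against 11.51 and 11.36 in the controls. The groups overlapped, since shRNA 3 was the highest array and shRNAs 1 and 2 the lowest. The log2 difference was -0.11 (SE 0.12, 95% interval -0.41 to 0.19, limma adjusted p = 0.832).

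FOS, the founding member and the most transient after stimulation, showed no shared direction among the shRNAs. It read 8.24, 8.09 and 8.69 with shRNAs 1, 2 and 3, against 8.29 and 8.36 in the controls. The shRNA 3 array was above both controls and the other TIP-1 arrays were below both. Its mean difference was 0.01 log2 units (SE 0.18, 95% interval -0.42 to 0.45, limma adjusted p = 0.988), and without shRNA 3 it was -0.16.

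FOSB, a FOS relative induced with FOS, read 8.20, 8.20 and 8.35 with shRNAs 1, 2 and 3, against 8.09 and 8.20 in the controls. All TIP-1 arrays were above both controls, but shRNAs 1 and 2 exceeded control 2 by less than 0.01 log2 units. The log2 difference was 0.11 (SE 0.09, 95% interval -0.12 to 0.33, limma adjusted p = 0.784).

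Among the JUN family, JUNB had the widest gap of the 9 factors. JUNB is a JUN partner that is a weaker activator than JUN and can hold it in check. It read 10.18, 10.33 and 10.36 with shRNAs 1, 2 and 3, against 9.96 and 10.04 in the controls. Every TIP-1 array was above both controls, and the group means of 10.29 ± 0.09 (SD, n = 3) with TIP-1 shRNA and 10.00 ± 0.05 (SD, n = 2) in controls differed by more than either spread. The log2 difference was 0.29 (SE 0.09, 95% interval 0.06 to 0.52), or 1.22-fold higher (1.05 to 1.43). It did not pass over all rows (unadjusted p = 0.0199, limma adjusted p = 0.707), and leaving out any 1 array gave differences of 0.25 to 0.34.

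JUN, the strongest activator of the family, moved in opposite ways among the shRNAs. It read 11.61, 11.65 and 11.02 with shRNAs 1, 2 and 3, against 11.32 and 11.47 in the controls. Cells with shRNAs 1 and 2 had the highest signals and cells with shRNA 3 the lowest, with the controls between them. The mean difference of 0.04 (SE 0.20, 95% interval -0.45 to 0.53, limma adjusted p = 0.97) therefore joined values of 0.22 and 0.26 for shRNAs 1 and 2 with -0.37 for shRNA 3, each set against the same control mean. Without shRNA 3 it was 0.24, and without shRNA 2 it was -0.07.

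JUND, the JUN member expressed most steadily in resting cells, read 9.78, 9.87 and 9.84 with shRNAs 1, 2 and 3, against 9.70 and 9.87 in the controls. All TIP-1 arrays lay between the controls or within 0.01 log2 units of control 2. Its range over the 5 arrays, 0.17 log2 units, was the narrowest of the 9, and the log2 difference was 0.05 (SE 0.09, 95% interval -0.17 to 0.27, limma adjusted p = 0.9).

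EGR1 had the widest range of the 9, and the gap between the controls was nearly as wide. It read 11.47, 11.23 and 11.81 with shRNAs 1, 2 and 3, against 11.91 and 11.24 in the controls. The 2 control clones differed by 0.67 log2 units, with shRNAs 1 and 3 between them and shRNA 2 just under control 2. The log2 difference was -0.08 (SE 0.25, 95% interval -0.67 to 0.52, limma adjusted p = 0.947). It was 0.26 without control 1, -0.41 without control 2 and 0.06 without shRNA 2, so its sign depended on single arrays of both groups.

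ATF3, a stress-induced bZIP factor that often acts as a repressor, read 7.42, 7.18 and 7.43 with shRNAs 1, 2 and 3, against 7.48 and 7.46 in the controls. All TIP-1 arrays were below both controls, by less than 0.1 log2 units for shRNAs 1 and 3. The log2 difference was -0.13 (SE 0.11, 95% interval -0.38 to 0.13, limma adjusted p = 0.773), and ATF3 was the only one of the 9 whose mean signal lay below the array medians.

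**Figure D2:**
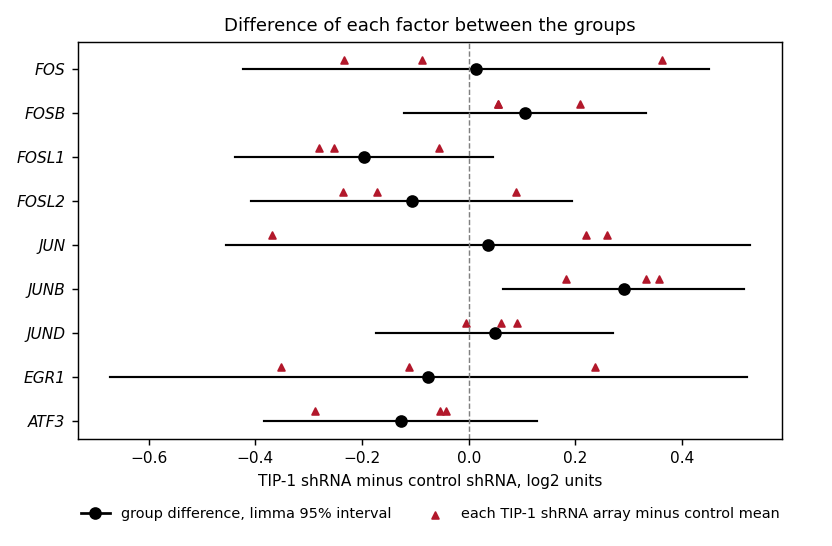
Difference of each factor, as log2 signal with TIP-1 shRNA minus that with control shRNA, as the group difference with limma's 95% interval (black) and for each TIP-1 array against the mean of the 2 controls (red triangles). The intervals of 8 factors span 0, that of JUNB runs from 0.06 to 0.52, and the triangles of FOS, FOSL2, JUN, JUND and EGR1 fall on both sides of 0.

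None of the 9 factors passed limma at an adjusted p under 0.05, and 1, JUNB, had an unadjusted p under 0.05. Over all rows, 0.00300% passed (1 row, that of TAX1BP3) and 6.95% had an unadjusted p under 0.05. Of the 9, 5 were higher and 4 lower, with a median difference of 0.01 log2 units, beside a median of -0.01 over all genes, of which 47.6% were higher. The median absolute difference was 0.11 log2 units among the 9 and 0.09 over all genes. The TIP-1 arrays lay all above both controls for JUNB and FOSB and all below both for FOSL1 and ATF3. That is 4 of 9, where 26.5% of all genes had separated groups, 12.5% above and 14.1% below. With fewer arrays groups separate more often, so each count has its own share of all genes: it was 7 of 9 beside 43.0% without shRNA 3, and 6 of 9 beside 51.0% without control 2. After each array was centred on its median it was 2 of 9, JUNB and FOSB, beside 29.3%, and FOSL1 and ATF3 were no longer separated.

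The factors did not move as 1 block across the cultures. FOS, FOSL1, FOSL2, EGR1 and ATF3 were each lowest with shRNA 2, and each was highest with shRNA 3 or in control 1. Of the rest, FOSB, JUNB and JUND were lowest in control 1 and JUN with shRNA 3. Over all genes, 16.3% were lowest with shRNA 2, 32.5% with shRNA 3 and 20.2% in control 1. Highest with shRNA 3 were 27.1% of all genes, and highest in control 1 were 14.9%. The 5 factors were grouped after their values were seen, so their number describes them and supports nothing. After median centring, FOSL1 and EGR1 were no longer lowest there, leaving 3 of 9 beside 10.3% of genes. FOSL1 and ATF3 followed the same order in all 5 arrays, from control 1 through control 2 and shRNAs 3 and 1 down to shRNA 2. The closest pair was FOSL1 and FOSL2, whose deviations from their own 5-array means differed by 0.05 log2 units on average.

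JUN stood opposite to EGR1 and FOSL2. In all 5 arrays JUN lay on the other side of its mean from both, and JUN and EGR1 were the least alike pair, with an average gap of 0.46 log2 units between their deviations. The shRNA 3 culture held 8 of 9 factors above their own 5-array means, all but JUN, where 46.1% of all genes were above theirs. It was singled out after the counts in the other arrays had been seen, which were 3 of 9 with shRNA 1, 3 of 9 with shRNA 2, 4 of 9 in control 1 and 5 of 9 in control 2, beside 46.2% to 57.1% of genes. Under quantile normalization the count there was 7 of 9, without JUND, beside 49.0% of genes, and after median centring it was 8 of 9 beside 59.4%. In that culture FOS deviated by 0.35 and EGR1 by 0.28 log2 units, whereas JUN deviated by -0.39. With shRNA 2, FOS deviated by -0.24 and EGR1 by -0.31, whereas JUN deviated by 0.24. EGR1 deviated by 0.38 in control 1 and by -0.29 in control 2, where JUN deviated by -0.10 and 0.05. With 5 arrays no correlation across samples was computed, and these values carry no test.

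**Figure D3:**
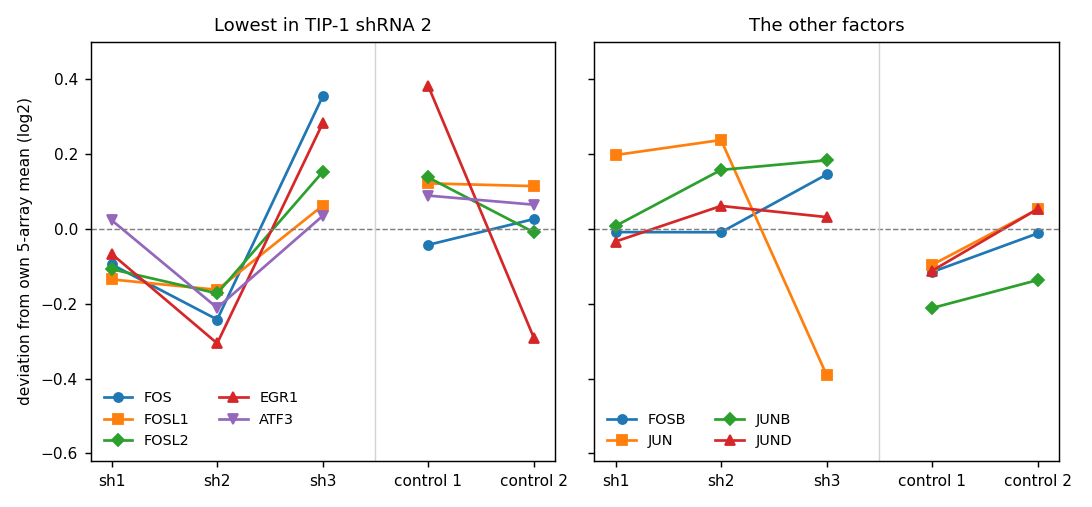
Deviation of each factor from its own mean over the 5 arrays, in log2 units, for TIP-1 shRNAs 1 to 3 (sh1 to sh3) and controls 1 and 2, with lines joining arrays of a group only to guide the eye. The 5 factors lowest with shRNA 2 are on the left, and on the right JUN is at -0.39 with shRNA 3 while JUNB is at 0.18.

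The spread over the 5 arrays was set beside that of other genes. The median range was 0.32 log2 units among the 9 factors and 0.29 over all genes. EGR1 (0.69), JUN (0.63) and FOS (0.60) had the widest ranges, and 6.99%, 8.75% and 9.97% of all genes had ranges at least as wide as theirs in that order. For these 3 the spread lay within the groups: the SD among TIP-1 arrays was 0.30 for EGR1, 0.35 for JUN and 0.31 for FOS, against group differences under 0.1. Between the controls the SD was 0.48 for EGR1, 0.10 for JUN and 0.05 for FOS.

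EGR1 and JUN, as the 2 widest, were matched to the other 18408 genes by the average gap between deviations over the 5 arrays. Nearest to JUN were ISOC1, an isochorismatase domain protein (0.01 log2 units), PCDHB11, a clustered protocadherin (0.02), and CCND1, cyclin D1 (0.03), whose gene is a textbook AP-1 target. CCND1 read 12.96, 12.95 and 12.28 with shRNAs 1, 2 and 3, against 12.64 and 12.81 in the controls, the same order as JUN but for shRNAs 1 and 2. Nearest to EGR1 were GBP2, an interferon-induced GTPase (0.04), TBC1D8B, a protein with a Rab GTPase-activating domain (0.05), and COL1A2, a chain of type I collagen (0.06). COL1A2 read 10.10, 9.72 and 10.48 with shRNAs 1, 2 and 3, against 10.60 and 9.81 in the controls, so its controls were also far apart. Among so many genes some close matches over 5 arrays are bound to be found, and the likeness is a description only.

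**Figure D4:**
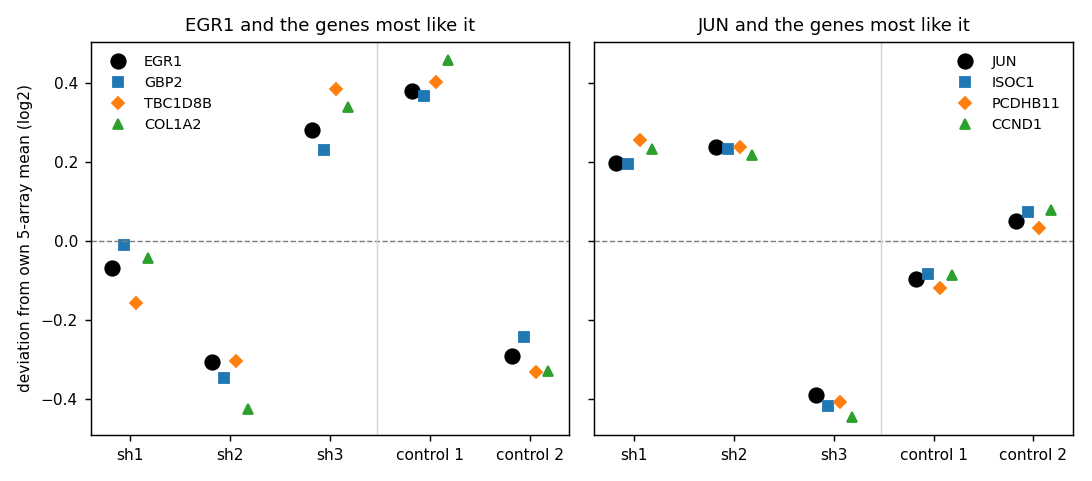
Deviation from the own 5-array mean, in log2 units, of EGR1 (left) and JUN (right) and of the 3 genes most like each, for TIP-1 shRNAs 1 to 3 (sh1 to sh3) and controls 1 and 2. EGR1 and its 3 nearest genes are high with shRNA 3 and in control 1, and JUN and its 3 nearest genes are low with shRNA 3.

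The rest of the pathway was read from 8 gene lists, of which 108 genes beside the 9 factors were measured. None passed limma at an adjusted p under 0.05 (smallest adjusted p = 0.707), and 7 higher and 7 lower genes had an unadjusted p under 0.05. At that level 3.00% of all rows were higher and 3.95% lower, counting rows without a symbol. The lists were chosen with earlier results of these data known, so these counts describe the lists and support nothing. The values below therefore describe the arrays, with each gene at an adjusted p of 0.707 or above.

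Among 14 dimer partners and bZIP relatives, 5 were higher and 9 lower (median log2 difference -0.05). The largest differences were those of BATF2, a partner of JUN proteins (-0.31, SE 0.11), the large MAF factor MAF (-0.25, SE 0.10), the CRE-binding factor CREB5 (-0.18) and BATF (-0.17), another partner of JUN proteins. Of the 14, 4 had all TIP-1 arrays below both controls, BATF2, MAF and CREB5 among them, and 1 had all above. Over all genes, 14.1% lay all below and 12.5% all above. Of 5 EGR relatives and NAB corepressors, which bind EGR1 and restrain it, 1 was higher and 4 lower (median -0.04). EGR4 differed by -0.20 and WT1, a zinc finger factor with EGR-like binding sites, by -0.16. Only EGR4 of the 5 had separated groups, below both controls, where 26.5% of all genes had separated groups.

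The 7 genes of serum response factor and its ternary complex partners had a median of -0.04, with 1 higher and 6 lower. ELK3, an ERK-regulated partner of serum response factor, read 11.18, 11.30 and 10.42 with shRNAs 1, 2 and 3, against 11.00 and 11.32 in the controls. It was lowest with shRNA 3, as JUN and 32.5% of all genes were. FHL2, a LIM-domain cofactor of AP-1, differed by -0.08. Among 14 upstream kinases the median was 0.03, with 9 higher and 5 lower, and 6 had all TIP-1 arrays above both controls, where 12.5% of all genes did. The kinases with the largest differences were 3 that act below ERK or p38. RPS6KA2 (RSK3) read 10.81, 11.23 and 9.91 with shRNAs 1, 2 and 3, against 8.75 and 8.68 in the controls (1.94, SE 0.36). RPS6KA5 (MSK1), a kinase of histone H3 at immediate early genes, differed by 0.40 (SE 0.14) and RPS6KA1 (RSK1) by 0.38 (SE 0.11). MAPK3 (ERK1) differed by -0.10.

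Of 24 other immediate early genes, 12 were higher and 12 lower (median 0.00). KLF4, a zinc finger factor, read 9.00, 8.99 and 7.60 with shRNAs 1, 2 and 3, against 7.87 and 8.02 in the controls, so, like JUN, it was above both controls with shRNAs 1 and 2 and below both with shRNA 3. SGK1, a serum-induced kinase, differed by 0.46 (SE 0.11) and ZFP36, which speeds the decay of mRNAs with AU-rich elements, by 0.32 (SE 0.12), both above the controls in all TIP-1 arrays. TNFAIP3, an inhibitor of NF-kappaB, differed by -0.38 (SE 0.21). In this list 4 of 24 had all TIP-1 arrays above both controls and 1 had all below, beside 12.5% and 14.1% of all genes.

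Of 23 known AP-1 targets, 13 were higher and 10 lower (median 0.01), so the list held no common direction. SPP1 (osteopontin) differed by -1.32 (SE 0.36) and the chemokine CXCL8 by -0.54 (SE 0.09), both below the controls in all TIP-1 arrays. The cytokine LIF differed by 0.60 (SE 0.12) and was above them in all 3. In this list 3 of 23 had all TIP-1 arrays above both controls and 5 had all below, beside 12.5% and 14.1% of all genes. HMGA1, a chromatin protein, read 10.39, 10.26 and 11.26 with shRNAs 1, 2 and 3, against 11.06 and 11.04 in the controls, opposite to JUN in shRNA 3, and its 3 rows gave differences from -0.41 to 0.03.

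Of 12 known EGR1 targets, 5 were higher and 7 lower (median -0.01). Fibronectin, FN1, differed by -1.67 (SE 0.46), tissue factor, F3, by -0.29 (SE 0.12), the cell cycle inhibitor CDKN1A by -0.22 (SE 0.10) and the cytokine GDF15 by 0.30 (SE 0.44). For 3 of the 12, FN1, F3 and CDKN1A, all TIP-1 arrays lay below both controls, and for 1 all lay above. The shares of all genes were 14.1% below and 12.5% above. FN1 read 9.16 in control 1 and 10.60 in control 2, whereas EGR1 was the higher of the 2 in control 1. The heat shock and dissociation stress list, kept because the cells had been trypsinised, had a median of -0.01 over 10 genes. Its largest differences were those of the chaperones DNAJB1 (0.25, SE 0.08), HSPH1 (0.21), DNAJA1 (0.10) and HSPA6 (-0.06). DNAJB1, HSPH1 and DNAJA1, 3 of the 10, were above both controls in all TIP-1 arrays, where 12.5% of all genes were. Of the 10 genes 5 were higher and 5 lower. The part of handling stress in the factors' levels was not tested.

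**Figure D5:**
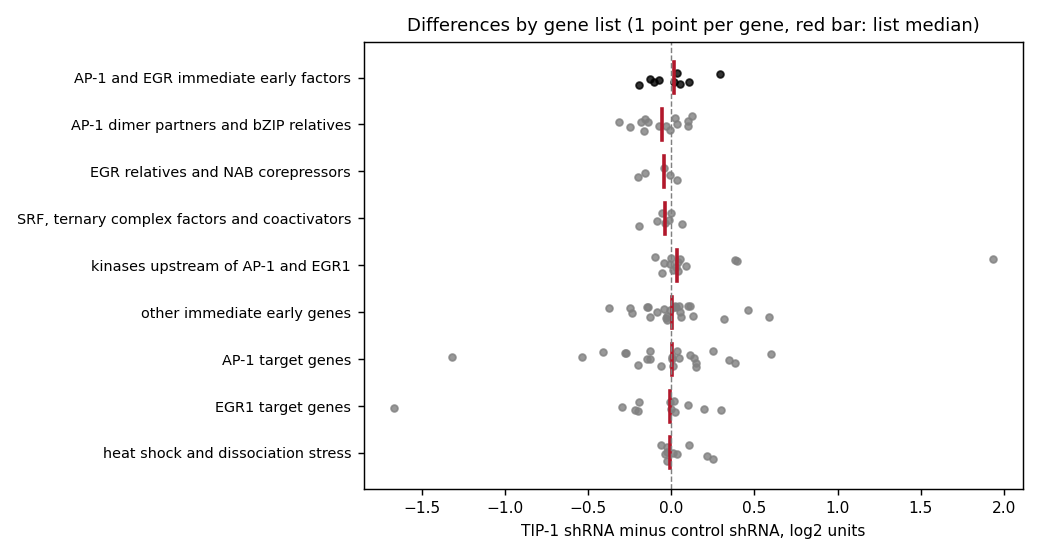
Difference of each gene, as log2 signal with TIP-1 shRNA minus that with control shRNA, for the 9 AP-1 and EGR factors (top, black) and 8 lists of pathway genes (grey), with the median of each list as a red bar. The list medians lie between -0.05 and 0.03, and single genes such as RPS6KA2 (1.94) and FN1 (-1.67) lie far from them.

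Markers of other cell types were read for the same arrays. Single readings ran from 6.42 to 12.49 for neurons, 5.82 to 12.66 for microglia and macrophages and 6.16 to 8.71 for endothelium. They ran from 5.88 to 13.73 for epithelium and 4.87 to 12.14 for fibroblasts, so bright and dim markers stood in the same list. Median differences over 5 to 7 genes each were -0.06 for neurons, -0.08 for microglia and macrophages, -0.07 for endothelium, -0.06 for epithelium and -0.10 for fibroblasts, and no marker passed limma at an adjusted p under 0.05. The summed log2 signal of the 6 endothelial markers ran from 42.16 to 42.27 in the TIP-1 arrays and from 42.51 to 42.85 in the controls, and that of the 5 epithelial markers from 47.38 to 47.89 in the TIP-1 arrays and from 48.12 to 48.16 in the controls. For these lists the TIP-1 arrays lay below both controls. Of the epithelial markers 2 were higher and 3 lower, and of the endothelial markers 1 was higher and 5 lower. The largest epithelial difference was that of EPCAM (-0.53), whose 2 rows gave differences from -0.53 to 0.04. The part of other cell types in the factors' levels was not tested. The ranges overlapped for the other lists. They were 57.24 to 59.98 in the TIP-1 arrays and 58.06 to 58.73 in the controls for fibroblasts. They were 56.52 to 58.81 and 57.97 to 58.96 in the same order for microglia and macrophages, and 54.69 to 56.73 and 56.65 to 56.77 for neurons.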

How the data were processed

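Total RNA of 5 D54 cultures was measured, 1 array each. The deposited values are log2 signals, and per the series' design text the authors processed the arrays with Affymetrix's Exon Array Computational Tool. The tool's version, the normalization, the background correction and the build are not stated in what was used here. Array quantiles nearly coincided, so the values were used as deposited. Rows were named by GEO's platform annotation, which can be old: 19460 rows had 1 symbol, 1754 several and 12083 none. The brightest single-symbol row stood for each gene.

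The 33297 rows were fitted in R 4.3.3 with limma 3.58.1 (lmFit and eBayes, two-sided, Benjamini-Hochberg over all rows, threshold 0.05), as TIP-1 shRNA minus control shRNA, and the fit was checked on simulated data. An exact permutation test of 1 gene on 3 against 2 arrays cannot give a p below 0.1, so none was used. The number of arrays limits the precision. The p-values rest on the spread between arrays within a group, moderated over all rows. In that spread shRNA or clone, culture and array cannot be told apart. Motifs were searched on both strands of RefSeq promoter windows (GRCh38.p14), available for 8 of the 9 measured factors. Members and lists were chosen with earlier results of these data known. All members were named, then the 4 genes of each list with the largest absolute difference (2 in lists under 10 genes), and the 3 genes most like each of the 2 widest members. Of 165 listed symbols, 150 had a row. Alternatives covered normalization, dim rows, the variance model, array weights, the replicate block, each array left out, and all rows per gene.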

Additional observations from a re-analysis of the deposited data

How the results depend on the processing

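No factor passed the threshold under any of the alternatives in which limma was fitted, and of 81 differences of the 9 factors under the 9 alternatives that can move them, 70 kept their direction and 11 changed sign. The bright-row filter, the trended robust fit and the mean of all rows per gene cannot change a factor's difference, and the replicate block gives the value without shRNA 3. FOS changed to -0.14 with array weights and to -0.16 with the replicate block, and ran from -0.16 to 0.14 when 1 array was left out. JUN changed to -0.0014 with quantile normalization and ran from -0.075 to 0.24 when 1 array was left out. EGR1 then ran from -0.41 to 0.26 and JUND from -0.034 to 0.13. The median of the factors, 0.01 as deposited, was -0.14 with array weights, -0.16 with the replicate block, and -0.16 (without shRNA 3) to 0.048 with 1 array left out. Separated groups were found for 4 factors (26.5% of all genes), for 3 with quantile normalization (24.5%), for 2 after median centring (29.3%) and for 4 to 7 with 1 array left out, where 33.6% to 57.9% of genes separated. The number of factors lowest with shRNA 2 was 5 as deposited and with quantile normalization, and 3 after median centring; this count and its alternatives were chosen after seeing the data. TAX1BP3 ran from -2.50 to -2.37 with 1 array left out and lost its call when the array dropped was control 1 (limma adjusted p = 0.386), control 2 (0.387) or shRNA 2 (0.129). Rows past the threshold numbered 1 as deposited, 2 with array weights, 15 with the replicate block and 0 to 6 with 1 array left out, the highest count coming without shRNA 3 and the count of 0 without either control or shRNA 2. With the replicate block, 2 list genes passed, RPS6KA2 and SPP1. Deviations from the group means correlated at 0.049 between the arrays numbered 1 and at -0.053 between those numbered 2. The deviations of the 2 controls are mirror images of each other, so these values are not separate checks. They cannot decide whether arrays of the same number were paired. In the block fit shRNA 3 has no control of its number and adds nothing to the difference. A fit with a single control takes its spread from the TIP-1 arrays. The causes of these changes were not tested.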
